A study of Mus musculus with 11 samples.

Results

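The replication-dependent histone genes were taken as all protein-coding mouse genes whose symbol marks them as members of the clustered histone families, that is Hist1h, Hist2h, Hist3h and Hist4h names, their newer H2ac, H2bc, H3c and H4c names, and the linker histones H1f1 to H1f5. The rule used gene names and no measured value. It matched 70 of the 55414 gene identifiers, and 3 pseudogenes (Hist1h2aj, Hist1h2al and Hist3h2bb-ps) were left out, which left 67 genes. These were 6 linker histone H1 genes, 18 H2A, 18 H2B, 12 H3 and 13 H4 genes, with 54 on chromosome 13, 10 on chromosome 3, 2 on chromosome 11 and 1 on chromosome 6. Their levels were read by bulk RNA-seq in apexes of C57BL/6 mouse hearts. The groups were 4 unirradiated hearts' libraries (NR), 4 libraries after 40 Gy of standard proton radiotherapy (S-PRT) and 3 after 40 Gy of FLASH proton radiotherapy (F-PRT, replicates 2 to 4), in which the dose is given at an ultra-high rate. Irradiated apexes were collected 2 weeks after the dose, and the labels give no age, sex or transgene. Whether each library stands for its own animal is not stated, and the spread behind the p-values may therefore be technical.

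Core histones H2A, H2B, H3 and H4 form the protein spool that DNA is wound on, and H1 binds the linker DNA between spools. The genes studied here supply these proteins in bulk while DNA is copied, and their mRNAs accumulate in S phase and are degraded when it ends. Most mRNAs end in a poly(A) tail, whereas the canonical mRNA of these genes ends just after a conserved stem-loop, which is bound by the stem-loop binding protein Slbp. The libraries were made by poly(A) selection, which does not capture such tail-less mRNAs by design. Some of these genes are known to give polyadenylated mRNAs as well, which run past the stem-loop, and the level of either form cannot be told apart in a value per gene. In bulk tissue, fewer cells of a type and less RNA per cell cannot be told apart either.

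The stem-loop was looked for in the annotated transcripts (GENCODE M21, GRCm38) as a motif of 16 bases whose arms pair with each other. It was found in 45 of the 67 genes, against 64 of 55450 genes in the whole annotation (0.115%). It is shown here, in capitals, for the genes whose values the results turn on and for one further H1 and one further H3 gene, with up to 6 bases on either side as the transcript has them, 5′ to 3′.
Hist1h1c: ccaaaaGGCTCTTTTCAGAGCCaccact
Hist1h1e: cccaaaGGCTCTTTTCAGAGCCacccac
Hist1h2ap: aaaaaaGGCTCTTTTCAGAGCCatc
Hist2h2aa1: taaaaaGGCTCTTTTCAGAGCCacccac
Hist2h2aa2: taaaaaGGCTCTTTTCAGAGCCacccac
Hist3h2a: accaaaGGCTCTTTTCAGAGCCacccac
Hist2h3c2: cacaaaGGCTCTTTTCAGAGCCaccaca
Hist1h4h: accaaaGGCCCTTTTCAGGGCCgcccac
Hist1h4i: cttaaaGGCCCTTTTTAGGGCCaccaca
The printed H1, H2A and H3 genes share 1 stem-loop, and the printed H4 genes have another pair of arms. How far the annotated transcript runs on differed between them. Hist1h2ap ends 3 bases after the stem-loop, Hist2h2aa1 and Hist2h2aa2 end 35 bases after it and Hist1h4h ends 46 bases after it. Hist1h4i runs 330 bases past it, Hist2h3c2 377, Hist1h1c 840, Hist1h1e 1153 and Hist3h2a 1643. No match was found in the annotated transcripts of Hist1h2bc and Hist2h2be, 2 H2B genes with counts in every library.

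Few of the 67 genes carried the signal. Of them, 58 had a count above 0 in at least 1 library, 18 had one in every library, and 9 were at 0 in all 11 libraries. With fewer than 10 counts in every library, 47 genes were close to the floor of detection, and 12 had 10 or more counts in every library. Hist1h1c, Hist1h2bc and Hist2h2aa2 together held 73.6% of all counts of the 67 genes and the top 10 genes held 96.3%. By class, H1 genes held 38.7% of these counts, H2B genes 29.7%, H2A genes 23.9%, H4 genes 6.21% and H3 genes 1.39%. All 67 genes together took 0.0154% to 0.0337% of the counts of a library. As TPM, a level per transcript length relative to all transcripts of a library (mean over the 11 libraries), the order was Hist2h2aa2 at 77.8, Hist1h1c at 53.7, Hist1h2bc at 49.7, Hist1h4h at 38.1, Hist2h2aa1 at 21.4 and Hist1h2ap at 13.2. Hist1h1b, a linker histone gene known from dividing cells, had 0 to 2 counts per library and Hist1h1a 0 to 3. The testis histone genes Hist1h2aa and Hist1h2ba were at 0 in all 11 libraries. There, 3 counts, the limit that a count of 0 allows, correspond to 0.0747 to 0.145 CPM (counts scaled to library size), counting error only. Hist1h1t, also a testis histone gene and a member by its Hist1h name, had 1 count in each of S-PRT replicate 1 and F-PRT replicate 4.

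**Figure D1:**
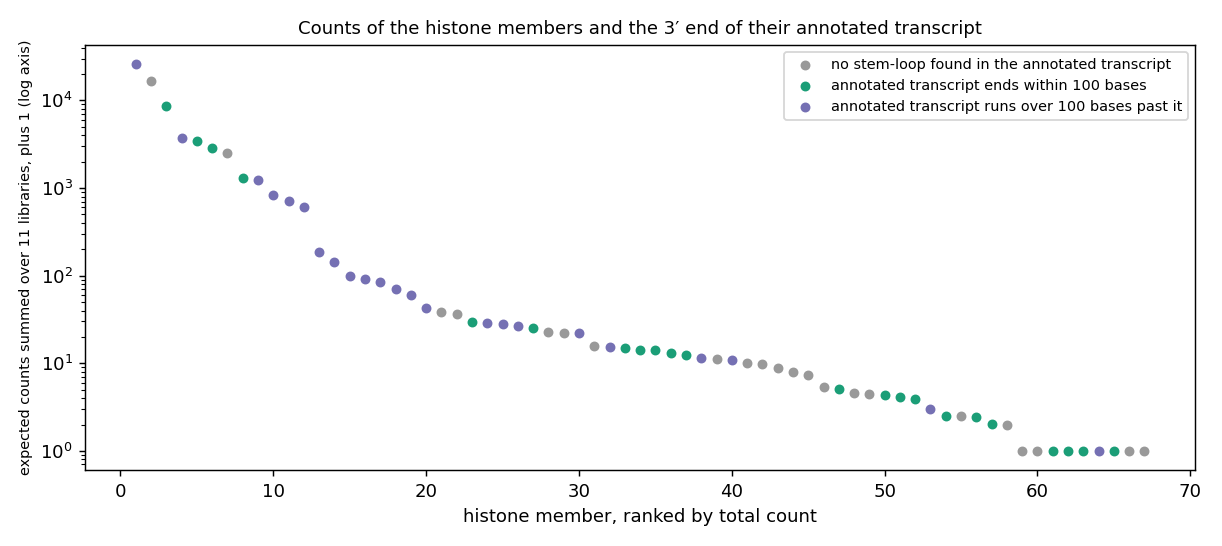
Expected counts summed over the 11 libraries (log axis, plus 1) for each of the 67 histone genes, ranked, coloured by how the annotated transcript ends. The top 3 genes hold 73.6% of all counts and 9 genes sit at 0.

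The 23 genes whose annotated transcript runs more than 100 bases past the stem-loop held 48.8% of the counts, with a median of 70.01 counts per gene summed over the libraries. The 22 genes that end within 100 bases held 23.4%, with a median of 7.82. The 22 with no match held 27.9%, with a median of 7.395, and their share lay mostly in Hist1h2bc. Some of these 22 have short annotated transcripts, such as Hist1h4k with 312 bases and Hist1h2bn with 381. Such a transcript may stop before a stem-loop, so no match does not show that the gene lacks one. These shares are a description of 67 genes with very unequal counts, and the values of single genes crossed them: Hist2h2aa2, Hist1h4h and Hist1h2ap end close to the stem-loop and were among the better counted genes.

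Reads of these genes are often ambiguous, since the genes are near copies of each other. The deposited expected counts were not whole numbers in at least 1 library for 50 of the 58 genes with counts and in every library for 12, which marks reads shared with another gene. The other 8 genes had whole counts throughout. A count of the 50-base stretches of each transcript that occur in no other gene gave a median of 50.5% unique stretches per gene. Hist2h2be was unique along its whole length (100%), Hist1h1c along 91.5%, Hist1h4i along 71.1%, Hist1h2bc along 69.9% and Hist1h4h along 54.2%. Hist2h2aa2 had no unique stretch (0%), and all its stretches also occur in the overlapping gene Gm20634, which itself had 51.9 to 159 expected counts. Hist2h2aa1 was unique along 10.6%. Hist1h2ap was unique along 6.93% and shared 93.1% with Hist1h2ao, which was at 0 in every library. The values of Hist2h2aa1, Hist2h2aa2 and Hist1h2ap are therefore uncertain as to which copy they belong to. Hist3h2a shared 31.5% of its stretches with Trim17, which had 0 to 8 counts per library. The sources used here do not give whether counting used the strand, and overlapping neighbours cannot be told apart.

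Each library held 20758170 to 40136578 expected counts. Mitochondrially encoded transcripts took 30.6% to 43.8% of them in NR, 37.1% to 43.5% in S-PRT and 24.2% to 42.3% in F-PRT. The rank correlation, across genes, between transcript length and each library's deviation from the mean was 0.34 to 0.42 in NR, -0.26 to 0.27 in S-PRT and -0.56 to -0.16 in F-PRT, so short transcripts were relatively higher in F-PRT libraries than in NR libraries. Many of the histone genes are short, and this trend moved with the results below. The cardiomyocyte markers (6 of 6 tested) summed to 38974 to 45108 CPM in NR, 37080 to 44282 in S-PRT and 35771 to 45129 in F-PRT, and the 3 ranges overlapped. Values per library below are CPM scaled with TMM factors, and tests are edgeR's quasi-likelihood test on rounded expected counts, with p-values adjusted over all 14556 genes tested.

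Summed over all 67 genes, the histone level was 174, 170, 177 and 158 CPM in the NR libraries, 228, 199, 230 and 238 in S-PRT and 270, 228 and 277 in F-PRT. Every irradiated library lay above every NR library, and the S-PRT and F-PRT ranges overlapped. The means were 170 ± 8.33 CPM in NR, 224 ± 17.0 in S-PRT (both n = 4) and 258 ± 26.7 in F-PRT (n = 3, SD), a ratio to NR of 1.32 and 1.52. The separation from NR depended on the scale. As TPM the sums were 225 ± 30.8 in NR, 262 ± 52.8 in S-PRT (both n = 4) and 367 ± 112 in F-PRT (n = 3, SD), and both irradiated groups overlapped NR. With CPM scaled to library size alone, S-PRT overlapped NR while the F-PRT libraries stayed above it.

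By class, the summed CPM of H2A, H2B and H4 genes was higher in every irradiated library of either mode than in every NR library. For H1 and H3 genes this held for F-PRT, and S-PRT overlapped NR. The H4 genes had the highest ratio, from 8.76 ± 0.655 CPM in NR to 13.9 ± 2.77 in S-PRT (both n = 4) and 17.8 ± 4.03 in F-PRT (n = 3, SD), ratios of 1.59 and 2.03. Most of the H4 sum was Hist1h4h alone, with means of 7.15, 10.8 and 14.6 CPM in NR, S-PRT and F-PRT. In NR, Hist1h1c made up 63.2 of 65.9 CPM of H1, and Hist1h2bc 41.6 of 53.5 CPM of H2B. The H1, H2B and H4 sums thus largely repeat these single genes. As TPM, H4 was the one class in which F-PRT lay wholly above NR, at 62.2 ± 22.5 against 31.1 ± 2.73 (SD, n = 3 and 4), and all other class sums overlapped NR in both modes. The 3 best counted genes did not carry the CPM difference alone, as the sum of the other 64 was 44.0 ± 2.39 CPM in NR, 60.9 ± 7.53 in S-PRT (both n = 4) and 65.7 ± 6.06 in F-PRT (n = 3, SD) with both irradiated groups wholly above NR. The 50 genes below the count filter summed to 1.81 ± 0.228, 1.93 ± 0.788 and 2.10 ± 0.213 CPM (SD, n = 4, 4 and 3), and these ranges overlapped.

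**Figure D2:**
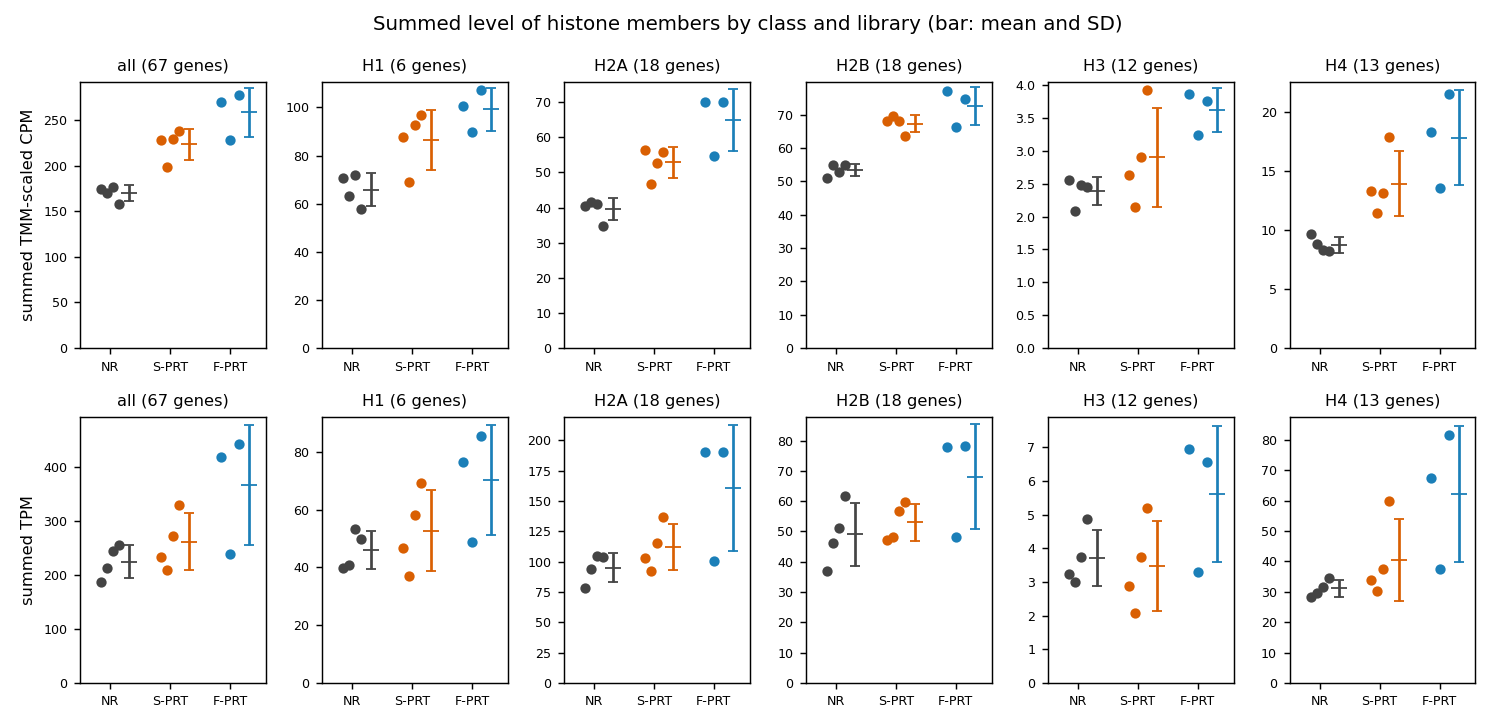
Summed level of the histone genes per library, for all 67 genes and for each class, as TMM-scaled CPM (upper row) and TPM (lower row), on linear axes from 0, where points are libraries and bars are means with SD. In CPM the sum over all genes is at most 177 in NR and at least 199 after irradiation, while the TPM sums overlap.

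The linker histone Hist1h1c, which encodes H1.2, a variant made in dividing and resting cells alike, had 67.2, 60.7, 69.4 and 55.5 CPM in NR, 84.1, 66.7, 88.7 and 91.6 in S-PRT and 98.0, 86.9 and 106 in F-PRT. All F-PRT libraries lay above NR, and S-PRT replicate 2 lay within the NR range. Hist1h1c rose in F-PRT against NR by 0.62 ± 0.12 on the log2 scale (SE, adjusted p 0.00915), and the difference in S-PRT was 0.39 ± 0.11 (SE, adjusted p 0.101). Same-numbered NR and S-PRT libraries were also taken as pairs, a weak pairing that the labels do not state. With the replicate number as a block on these pairs, the S-PRT value was 0.38 ± 0.09 (SE, adjusted p 0.0353). Without the block and without S-PRT replicate 2, its adjusted p was 0.0400. Leaving out any other single library gave no S-PRT call of Hist1h1c, with adjusted p of up to 0.255. Hist1h1e, which encodes H1.4, had 3.04, 2.05, 2.23 and 2.04 CPM in NR, 2.74, 1.53, 3.36 and 4.46 in S-PRT and 2.13, 2.27 and 1.04 in F-PRT. Its 3 groups overlapped, with log2 differences from NR of 0.40 ± 0.30 in S-PRT and -0.39 ± 0.35 in F-PRT (SE).

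Among the H2A genes, Hist1h2ap had the largest change of the histone genes called. It had 1.25, 0.838, 1.94 and 1.16 CPM in NR, 5.11, 4.71, 7.43 and 7.18 in S-PRT and 5.95, 2.39 and 4.91 in F-PRT. The lowest irradiated library, F-PRT replicate 3, still lay above the highest NR library. Hist1h2ap rose by 2.23 ± 0.30 on the log2 scale in S-PRT (SE, adjusted p 0.00664) and by 1.78 ± 0.32 in F-PRT (SE, adjusted p 0.008). These are 22.43 to 65.52 expected counts per NR library against 42.99 to 302.89 after irradiation. Leaving out any single library kept both calls. On log2(TPM + 1) the adjusted p of limma was above 0.05 in both, at TPM of 4.92 ± 2.11 in NR, 19.1 ± 6.25 in S-PRT (both n = 4) and 16.5 ± 8.68 in F-PRT (n = 3, SD).

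Hist2h2aa2 and Hist2h2aa1 are adjacent copies of 1 H2A gene. Hist2h2aa2 had 21.98, 24.6, 20.4 and 17.8 CPM in NR, 30.3, 23.1, 24.97 and 24.2 in S-PRT and 36.7, 26.9 and 40.4 in F-PRT. Hist2h2aa1 had 6.34, 5.50, 7.99 and 6.85 CPM in NR, 6.997, 9.02, 7.37 and 12.2 in S-PRT and 12.3, 11.8 and 8.73 in F-PRT. Both lay above the NR range in all F-PRT libraries and overlapped it in S-PRT. They rose in F-PRT, Hist2h2aa2 by 0.72 ± 0.15 (SE, adjusted p 0.0105) and Hist2h2aa1 by 0.70 ± 0.20 (SE, adjusted p 0.0297). The call of Hist2h2aa1 was lost without NR replicate 1, 2 or 4 or F-PRT replicate 2 or 3, with adjusted p of up to 0.0942. Hist3h2a, the H2A gene of the small chromosome 11 cluster, had 10.2, 9.98, 9.88 and 8.26 CPM in NR, 13.0, 9.05, 12.2 and 11.1 in S-PRT and 14.1, 12.8 and 14.6 in F-PRT. Its F-PRT libraries lay above NR and it rose by 0.53 ± 0.13 there (SE, adjusted p 0.0158), while S-PRT replicate 2 lay inside the NR range.

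Of the H2B genes, Hist1h2bc had 38.6, 42.4, 42.1 and 43.4 CPM in NR, 55.0, 55.7, 55.5 and 50.8 in S-PRT and 65.1, 55.0 and 62.9 in F-PRT. Both irradiated groups lay wholly above NR, with a small spread within each group. Hist1h2bc rose by 0.38 ± 0.07 on the log2 scale in S-PRT (SE, adjusted p 0.0335) and by 0.55 ± 0.08 in F-PRT (SE, adjusted p 0.00456). The S-PRT call was lost without any 1 of the NR libraries or without S-PRT replicate 1, 2 or 3, with adjusted p of 0.0554 to 0.110 at log2 values of 0.36 to 0.40, and the F-PRT call held without any single library. Hist2h2be, an H2B gene with reads all its own, had 8.36, 7.92, 7.85 and 7.46 CPM in NR. It had 8.83, 10.7, 6.46 and 6.61 in S-PRT and 5.96, 7.06 and 8.0002 in F-PRT. The groups overlapped, and its log2 difference from NR was 0.03 ± 0.16 in S-PRT and -0.17 ± 0.17 in F-PRT (SE). It was the only tested histone gene with whole counts in every library.

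The H3 genes were the most thinly counted class. Hist2h3c2 had 1.84, 1.45, 1.74 and 1.34 CPM in NR, 1.86, 1.05, 1.68 and 2.69 in S-PRT and 1.89, 2.47 and 2.23 in F-PRT. Its F-PRT libraries lay just above NR, and its log2 differences were 0.45 ± 0.27 in F-PRT (adjusted p 0.245) and 0.21 ± 0.25 in S-PRT (adjusted p 0.706; SE in both). Hist1h3d had 0.0840, 0.180, 0.129 and 0.221 CPM in NR, 0.270, 0.331, 0.400 and 0.363 in S-PRT and 0.752, 0.0640 and 0.416 in F-PRT, which is 1.15 to 19.8 expected counts per library. S-PRT lay above NR and F-PRT overlapped it, and neither difference was called. No NR library of Hist1h3d was past the cutoff of the count filter, so it entered the test through its irradiated libraries. Its F-PRT value of 1.84 on the log2 scale without F-PRT replicate 3 (adjusted p 0.0151) is therefore no support for a direction.

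The H4 genes all encode the same class of core histone, and 2 of them passed the count filter. Hist1h4h had 7.98, 7.73, 6.59 and 6.29 CPM in NR, 10.7, 8.70, 9.06 and 14.8 in S-PRT and 14.5, 11.7 and 17.7 in F-PRT. All irradiated libraries lay above NR, and Hist1h4h rose in F-PRT by 1.04 ± 0.19 on the log2 scale (SE, adjusted p 0.00809). In S-PRT the difference was 0.61 ± 0.18 (SE, adjusted p 0.111). Hist1h4i had 1.08, 0.942, 1.37 and 1.58 CPM in NR, 2.36, 2.27, 3.44 and 2.20 in S-PRT and 3.47, 1.56 and 3.36 in F-PRT. All S-PRT libraries lay above NR, whereas F-PRT replicate 3 lay within the NR range. Hist1h4i rose in F-PRT by 1.17 ± 0.29 (SE, adjusted p 0.0177), a call lost without F-PRT replicate 2 or 4 (adjusted p 0.0607 and 0.0694). In S-PRT it differed by 1.03 ± 0.27 (SE, adjusted p 0.0824), by 1.04 ± 0.21 without F-PRT replicate 3 (SE, adjusted p 0.0317) and by 1.03 ± 0.21 with the replicate block (SE, adjusted p 0.0170). Without any other single library, Hist1h4i was not called in S-PRT, with adjusted p of up to 0.227.

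**Figure D3:**
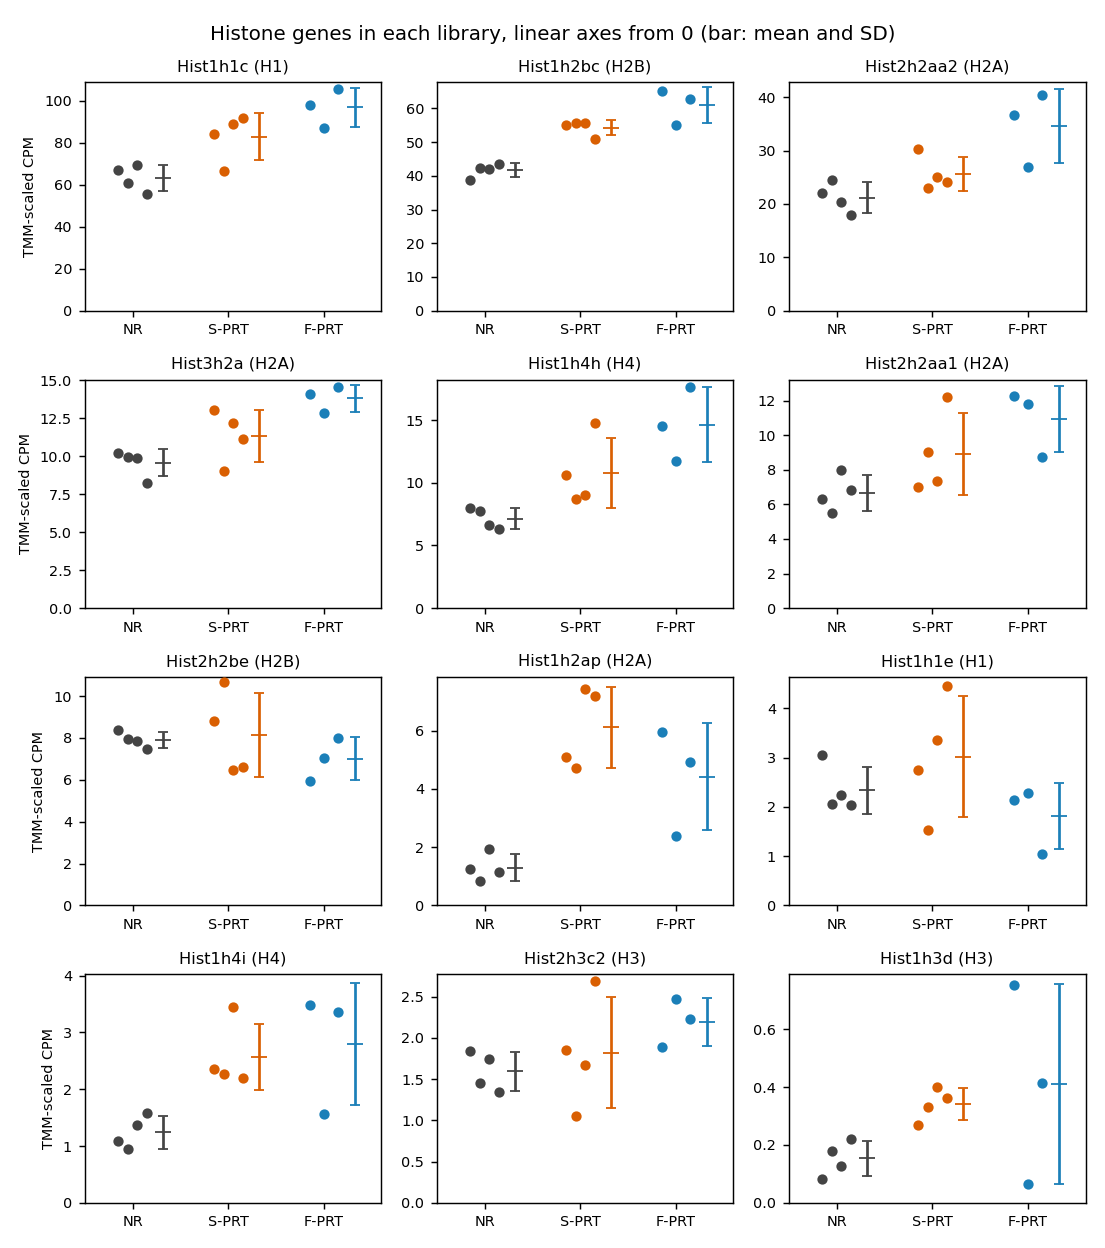
TMM-scaled CPM of 12 histone genes in each library, on linear axes from 0, where points are libraries and bars are means with SD. Hist1h2ap and Hist1h2bc lie wholly above NR after both modes of radiotherapy, and Hist2h2be overlaps across all groups.

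Of the 67 genes, 17 passed the count filter. Hist1h1d, Hist1h2ac, Hist1h3d, Hist1h3e and Hist1h3f did so with fewer than 3 NR libraries past the cutoff, so their direction is partly set by the filter, and they are left out of the counts that follow. Among these, Hist1h1d lay above NR in every S-PRT library (0.518 to 0.642 against 0.187 to 0.477 CPM) with a log2 difference of 1.09 ± 0.35 (SE, adjusted p 0.131), and none of the 5 was called. Hist1h2be, an H2B gene at 2.55 to 3.58 CPM in NR, differed by 0.40 ± 0.22 in S-PRT and 0.25 ± 0.24 in F-PRT (SE) and overlapped NR in both. Of the 12 remaining genes, 2 rose in S-PRT against NR and none fell, beside 0.872% of all tested genes called higher and 0.419% called lower (1.29% in either direction). The replicate block gave 4 of the 12 higher (Hist1h1c, Hist1h2ap, Hist1h2bc and Hist1h4i), beside 6.42% of all genes. In F-PRT against NR, 8 of the 12 rose and none fell. Beside this, 10.8% of all tested genes were called higher and 8.67% lower (19.5% in either direction). The 8 include Hist2h2aa1 and Hist2h2aa2, near copies with 10.6% and 0% unique stretches, so their calls are not independent. Groups did not overlap, with the irradiated libraries higher, for 4 of the 12 in S-PRT (7.33% of all tested genes) and for 8 in F-PRT (17.5% of all tested genes). No histone gene had all irradiated libraries lower, beside 6.71% of all tested genes in S-PRT and 14.0% in F-PRT. The median log2 difference of the 12 was 0.39 in S-PRT and 0.58 in F-PRT, beside 0.01 and 0.03 over all tested genes. These comparisons share the 4 NR libraries.

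The background was higher for short transcripts, and the histone genes differ in length. In the shortest of 10 equal length bins of tested genes (168 to 987 bases), 39.1% were called higher in F-PRT against NR. The median log2 difference there was 0.44. In the longest bin 1.17% were called higher and 30.8% lower, while 0.893% of the shortest bin were called lower. In S-PRT against NR, 4.05% of the shortest bin were called higher, with a median of 0.25. Of the 12 histone genes, 5 lay in this bin (Hist1h2ap, Hist1h4h, Hist1h4i, Hist2h2aa1 and Hist2h2aa2). All 5 were called higher in F-PRT and 1 in S-PRT (Hist1h2ap). The other genes called in F-PRT lay in longer bins. The share called higher in F-PRT was 25.6% in the bin of Hist1h2bc, 16.2% in that of Hist1h1c and 6.94% in that of Hist3h2a. With the trend over length removed from each library, no histone gene was called in F-PRT against NR, where 1.99% of all genes were called higher. In S-PRT against NR, Hist1h2ap alone was then called (1.91 ± 0.32 on the log2 scale, SE, adjusted p 0.0344), beside 0.220% of all genes. In F-PRT the 8 genes kept a positive difference without the trend, from 0.23 ± 0.11 for Hist2h2aa2 (SE, adjusted p 0.239) to 1.26 ± 0.35 for Hist1h2ap (SE, adjusted p 0.0632). Hist3h2a, with 2146 bases in the middle of the length range, moved little, from 0.53 to 0.46 ± 0.12 (SE, adjusted p 0.0593). The part of length in the result itself was not tested beyond this fit.

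**Figure D4:**
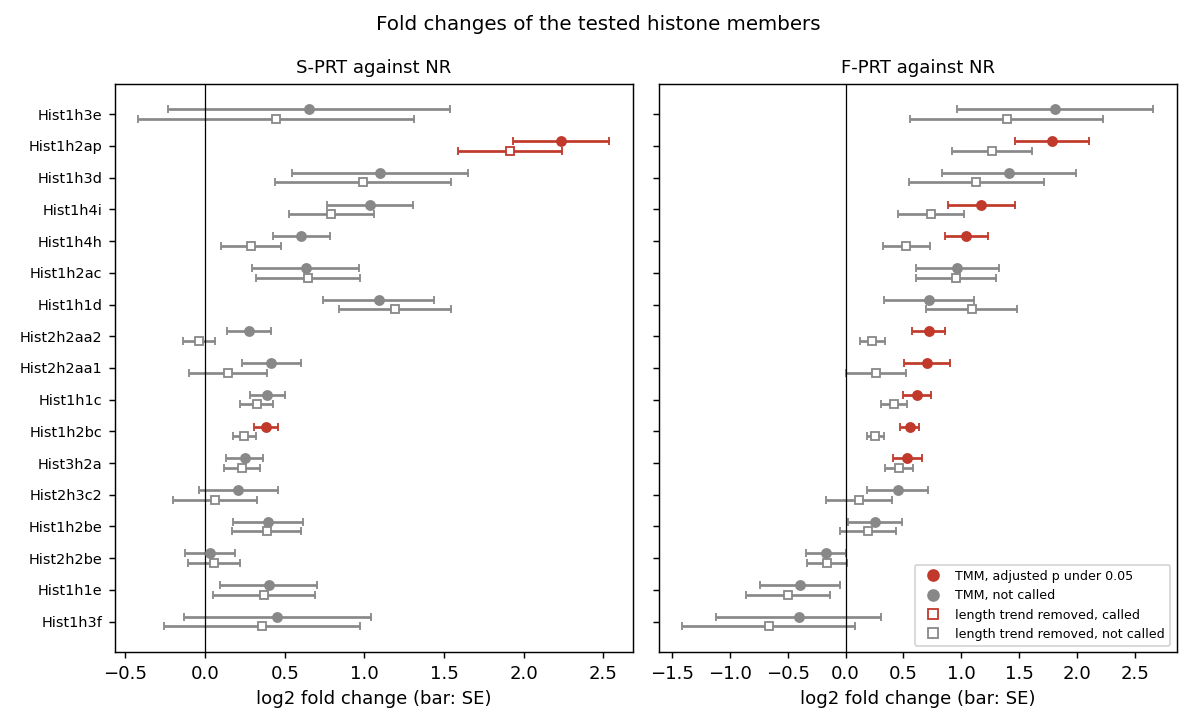
Log2 fold changes with SE of the 17 tested histone genes against NR, with TMM scaling (circles) and with each library's length trend removed (squares), where red marks an adjusted p under 0.05. In F-PRT 8 genes are called with TMM and none without the trend, and Hist1h2ap stays called in S-PRT.

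**Figure D5:**
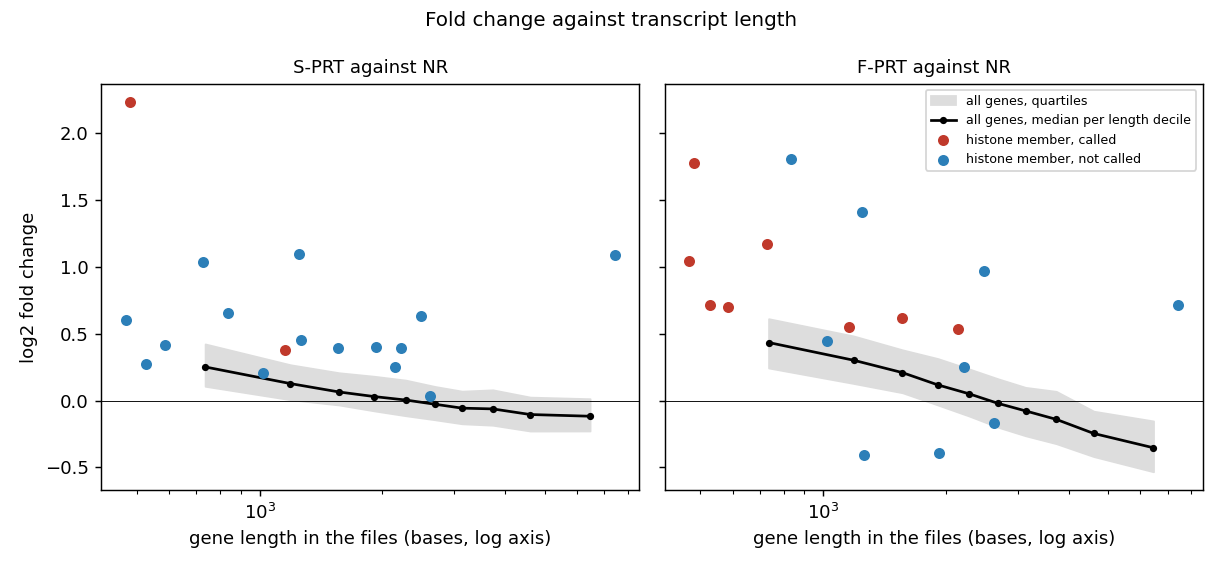
Log2 fold change against transcript length (log axis) for the 17 histone genes and for all tested genes in 10 bins of length (median and quartiles). The median of all genes in F-PRT falls from 0.44 in the shortest bin to -0.35 in the longest.

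Between the irradiated groups, none of the 17 histone genes was called in F-PRT against S-PRT, where edgeR called 0 of the 14556 genes tested (0.0%). At an unadjusted p under 0.05 there were 2315 genes. DESeq2 called 168 genes and none of the histone genes to which it gave an adjusted p. It gave none to Hist1h1d, Hist1h1e, Hist1h2ac, Hist1h3d, Hist1h3e, Hist1h3f, Hist1h4i and Hist2h3c2, which could therefore not be called. The histone differences ranged from -0.86 ± 0.70 for Hist1h3f to 1.15 ± 0.81 for Hist1h3e (SE), both thinly counted. Among better counted genes, Hist1h2bc differed by 0.17 ± 0.08, Hist1h1c by 0.23 ± 0.12, Hist2h2aa2 by 0.44 ± 0.15 and Hist1h2ap by -0.45 ± 0.30 (SE). Hist1h1e differed by -0.79 ± 0.34, Hist1h4h by 0.44 ± 0.19 and Hist3h2a by 0.29 ± 0.13 (SE). No histone gene had groups that did not overlap, beside 5.45% of all tested genes with F-PRT higher and 5.15% with F-PRT lower. The effects of the 2 modes were thus not shown to differ, and a p above the threshold does not show that they were alike.

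Scaling to library size alone left Hist1h2ap as the only histone gene called in either irradiated group, among 14 and 134 genes called in all. That scaling moved the median of all genes by -0.14 in S-PRT and 0.07 in F-PRT against NR. Of the 12 genes past the cutoff in NR, all had a positive difference from NR with TMM in S-PRT and 11 did with library size alone, where Hist2h2be was below 0. With limma on log2(TPM + 1) no histone gene was called, among 2 and 71 genes called.

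Genes that work with the histone genes showed the following, in the fit that keeps the trend over length. The part of length in these and the later lists was not tested. Of 45 genes of S phase and DNA replication, 3 rose in S-PRT and 9 in F-PRT, and none fell, with medians of 0.35 and 0.48 on the log2 scale. Over all tested genes, 0.872% were called higher and 0.419% lower in S-PRT, and 10.8% higher and 8.67% lower in F-PRT, which is also the background of the lists that follow. Mcm5 and Mcm10, both needed to open DNA for copying, rose in both modes, Mcm5 by 1.24 ± 0.26 in S-PRT and 1.10 ± 0.28 in F-PRT and Mcm10 by 1.88 ± 0.40 and 1.66 ± 0.43 (SE). Uhrf1, which keeps DNA methylation through replication, rose in S-PRT by 1.69 ± 0.33 (SE, adjusted p 0.0335). Rfc2, a clamp loader subunit, and Gins2, part of the replicative helicase, rose in F-PRT by 0.48 ± 0.10 and 1.36 ± 0.29 (SE). These mRNAs have ordinary poly(A) tails. Their summed level was 159 to 187 CPM in NR, 193 to 251 in S-PRT and 199 to 248 in F-PRT, so both irradiated groups lay above NR, as with the histone sum, and their TPM sums overlapped.

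Of 24 tested genes of histone mRNA transcription, 3′ processing and decay, none was called in S-PRT, where E2f1 and Pou2f1 had the smallest p (1.64 ± 0.42 and -0.41 ± 0.12, SE). In F-PRT, 2 rose (8.33%) and 3 fell (12.5%), shares near those over all tested genes. Lsm10, part of the small nuclear particle that cuts histone pre-mRNA, rose by 0.41 ± 0.10 (SE, adjusted p 0.0170), and E2f1, a cell cycle transcription factor that the S phase list also holds, by 1.49 ± 0.44 (SE, adjusted p 0.0352). Npat, the coactivator of histone gene transcription, fell by 0.55 ± 0.14 on the log2 scale (SE, adjusted p 0.0176), Tut4, which adds uridines to RNA ends, by 0.55 ± 0.14 and Pou2f1, the octamer-binding factor Oct-1, by 0.53 ± 0.13. Slbp itself differed from NR by 0.04 ± 0.14 in S-PRT and 0.29 ± 0.15 in F-PRT (SE) and was not called in either mode. Of 22 histone chaperones, none was called in S-PRT, where Mms22l and Chaf1b had the smallest p (1.19 ± 0.34 and 1.42 ± 0.46, SE). In F-PRT, Chaf1a, a subunit of the assembly factor that acts behind the replication fork, rose by 0.77 ± 0.25 (SE, adjusted p 0.0466) and Atrx, a chromatin remodeller, fell by 0.49 ± 0.13 (SE, adjusted p 0.0235).

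Replication-independent histone variants mostly have introns or ordinary poly(A) tails, and many are made in resting cells. Of 11 tested, 2 rose in S-PRT and 3 in F-PRT, and none fell. H2afj, an H2A variant gene, had means of 18.7, 31.1 and 36.1 CPM in NR, S-PRT and F-PRT and rose by 0.74 ± 0.09 and 0.95 ± 0.09 (SE, adjusted p 0.0032 and 0.000652). H2afz, which encodes H2A.Z, rose by 0.43 ± 0.08 and 0.53 ± 0.08 (SE, adjusted p 0.0259 and 0.0046), and H2afy, which encodes macroH2A1, by 0.26 ± 0.08 in F-PRT (SE, adjusted p 0.0327). H1f0, the linker histone of resting cells, differed by -0.02 ± 0.07 in S-PRT (SE). Of the 20 other RNAs made without a poly(A) tail, 3 could be tested. Bc1, a brain cytoplasmic RNA that carries an internal A-rich stretch, rose by 2.37 ± 0.24 in S-PRT and 2.13 ± 0.25 in F-PRT (SE, adjusted p 0.0032 and 0.00223), while Rmrp and Rpph1, at 0 to 17 counts per library, were not called.

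Markers of cell types were read beside the histone values. Of 8 leukocyte and macrophage markers, 1 rose in S-PRT and 2 in F-PRT. Ccr2, a receptor of inflammatory monocytes, rose by 2.33 ± 0.25 and 2.18 ± 0.27 (SE), and Cd52 rose in F-PRT by 1.45 ± 0.43 (SE). The 8 markers summed to 95.5 to 165 CPM in NR, 154 to 304 in S-PRT and 129 to 235 in F-PRT, which overlap, and none was at 0 throughout. Their median log2 difference from NR was 0.81 in S-PRT and 0.55 in F-PRT. No marker was called among the 4 tested of B, T and NK cells, 6 erythroid, 4 platelet, 5 endothelial or 2 skeletal muscle genes. Their medians in S-PRT and F-PRT were -0.53 and -0.54 for B, T and NK cells, -0.54 and -0.43 for erythroid, 0.28 and 0.57 for platelet, -0.55 and -0.50 for endothelial and 0.45 and 0.63 for skeletal muscle markers. Of the fibroblast markers Pdgfra fell in F-PRT by 1.34 on the log2 scale, of the cardiomyocyte markers Ryr2 fell by 0.86, and of the atrial markers Myl4 rose by 1.01 ± 0.25 (SE). The medians were -0.09 and -0.54 for fibroblast, -0.04 and -0.08 for cardiomyocyte and 0.34 and 1.01 for atrial markers. The part of these cells in the histone values was not tested.

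Promoters (250 bases before to 50 after the gene start, RefSeq, GRCm38.p6) were at hand for 62 of the 67 genes and were searched on both strands for 3 motifs, none of which contains another. The letters CCAAT, the core of the box bound by NF-Y, occurred in 85.5% of them against 37.9% of all 27025 promoters, and TATAAA in 56.5% against 14.2%. The octamer ATTTGCAT, the site of Pou2f1, occurred in 20.97% against 1.75%, in 7 of 18 H2A and 6 of 16 H2B promoters and in none of the 6 H1, 10 H3 and 12 H4 promoters. Of the 8 genes called higher in F-PRT, 7 had a promoter at hand, of which 5 held CCAAT, 2 TATAAA and 1 the octamer. In the other 55 promoters these numbers were 48, 33 and 12.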

How the data were processed

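RNA of an integrity number above 9 was selected by poly(A) and sequenced from directional libraries, per the labels' protocols. RSEM, STAR, cutadapt, FastQC and edgeR are the tools, and mm10 and GRCm39 the builds, per the submitters' processing notes. The deposited files give expected counts, TPM and gene lengths, per the file headers. RSEM divides ambiguous reads between near copies by a model, so the expected counts the authors deposited need not be whole, and shared reads can move between histone genes. The deposited TPM are divided by effective length, per the file headers, and add up to 1 fixed total for every library.

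Of 55414 identifiers, 52081 matched a mouse symbol. Expected counts were rounded, and 14556 genes passed filterByExpr with a minimum count of 10 and a minimum total of 15. All 11 libraries entered 1 edgeR 4.0.16 quasi-likelihood fit (R 4.3.3) with TMM scaling and Benjamini-Hochberg adjustment, with calls at an adjusted p under 0.05. Values are mean ± SD, and folds ± SE. The fit was tested on simulated data. Counts were called whole within 1e-09. Alternatives used DESeq2 1.42.0, limma 3.58.1 and sva 3.50.0. The length trend was a lowess curve (span 0.5) per library, subtracted before the fit. The histone genes and all lists were chosen with earlier results of these data known. Values in every library are given for each histone gene called in any comparison with a mean of at least 1 CPM and for the 2 best counted genes of each class, and each list names up to 4 called genes with the smallest p, or 2 where none was called. Hist1h1d and Hist1h2be were added after their values were seen. GENCODE M21 held the transcript identifiers of all 67 genes under other versions, with the same length for 62 of the 62 genes with 1 transcript.

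Replicate numbers come from the sample titles. Between NR and S-PRT the deviations of same-numbered libraries from their group means correlated at 0.27, 0.28, 0.36 and 0.18 over 11107 genes, each above 0.1, so the numbers were taken to pair these libraries. The pairing is weak, since the 12 differently numbered pairs ran from -0.45 to 0.44 and 2 of the 4 S-PRT libraries correlated best with their own number. Same-numbered pairs ran from -0.45 to 0.23 between F-PRT and NR and from -0.39 to -0.16 between F-PRT and S-PRT, and F-PRT numbers were not taken as pairs. Counts over the 12 histone genes past the count cutoff in 3 or more NR libraries were chosen after seeing the data.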

Additional observations from a re-analysis of the deposited data

Results flagged for a closer look

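Of 36 groups of 4 libraries checked, 4 held a library far from the others of its group, and chance alone gives about 1 in 20. Hist1h2bc was at 50.8 CPM in S-PRT replicate 4, against a group median of 55.3, still above every NR library. Hist3h2a was at 8.26 CPM in NR replicate 4, against a group median of 9.93. The sum of the H2A genes was 34.9 CPM in the same library, against a group median of 40.7. Hist1h4i was at 3.44 CPM in S-PRT replicate 3, against a group median of 2.31.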

How the results depend on the processing

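Against NR, 2 histone genes were called in S-PRT and 8 in F-PRT. In S-PRT against NR the number was 1 with library size only and with the length trend removed, 4 with no count filter, with 1 surrogate variable and with the replicate block, 5 with the DESeq2 test, 0 with limma on log2(TPM + 1) or log2(TPM + 0.1) and 0 among members with whole counts only (Hist2h2be). In F-PRT against NR it was 1 with library size only and 0 with the length trend removed, with either TPM fit, with the replicate block (whose numbers do not pair F-PRT with NR) and with whole counts only, 9 with 1 surrogate variable and 8 with the DESeq2 test and no count filter. Without single replicates it was 1 to 3 in S-PRT and 6 to 8 in F-PRT. The whole-count numbers are those of Hist2h2be alone in the main fit, so they say nothing of the other histone genes.

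All genes called in S-PRT against NR numbered 188, and 14 (library size only), 697 (DESeq2 test), 2 and 3 (TPM + 1 and + 0.1), 605 (no filter), 44 (length trend removed), 716 (surrogate variable), 1371 (replicate block) and 26 to 444 without single replicates. In F-PRT against NR they numbered 2841, and 134, 71 and 74 (TPM), 3415 (DESeq2 test), 511 (length trend removed), 4159 (surrogate variable), 29 (replicate block) and 1382 to 3784 without single replicates. In F-PRT against S-PRT they numbered 0, and 3 (DESeq2 size factors), 168 (DESeq2 test), 9 and 4 (TPM), 71 (no filter) and 0 to 103 without single replicates, the 103 without F-PRT replicate 3. The causes were not tested.

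For all 17 tested histone genes the median log2 difference was 0.42 in S-PRT against NR. Of these genes, 5 passed the filter mainly through irradiated libraries. The median became 0.30 (library size only) and 0.0837 and 0.16 (TPM). In F-PRT against NR, 0.70 became 0.58 over the other 12 genes, 0.43 (TPM + 1), 0.25 (no filter, over 58 genes) and 0.42 (length trend removed). Without single replicates it was 0.57 to 0.71. In F-PRT against S-PRT, 0.23 became 0.40 (library size only), 0.0031 (no filter, over 58 genes) and 0.0562 (length trend removed). The medians with no filter are thus over another set of genes, most of them thinly counted. Whole counts left Hist2h2be alone, so no median could be taken. Its main-fit values were 0.034 in S-PRT against NR, -0.17 in F-PRT against NR and -0.20 in F-PRT against S-PRT. The log2 ratio of summed levels was 0.40 in S-PRT against NR, 0.22 by TPM and 0.26 by library size, and 0.21 in F-PRT against S-PRT, 0.49 by TPM and 0.40 by library size.

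Signs reversed for uncalled differences. In S-PRT against NR, Hist2h2aa2 was -0.0373 with the length trend removed, Hist2h2be -0.12 with library size only, -0.14 and -0.19 by TPM and -0.0011 and -0.11 without S-PRT replicate 1 or 2 (range -0.11 to 0.12), and Hist2h3c2 -0.0354 and -0.0865 by TPM and -0.0578 without S-PRT replicate 4 (range -0.0578 to 0.38). In F-PRT against S-PRT, Hist2h2be was 0.0035, 0.0083 and 0.006 with library size and TPM, Hist1h4i -0.0573 with the length trend removed and -0.0283 to 0.40 without single replicates, and Hist1h3d -0.0392 with the replicate block and -0.38 to 0.73 without single replicates. With fewer than 10 counts per library, 47 of the 67 genes could show only large changes.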
